A study of Bos taurus with 4 samples.

Results

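H3K4me3 regions that lay partly, but not wholly, under H3K27me3 in bovine embryonic stem cells (bESCs) numbered 836 of 17728 H3K4me3 regions on chromosomes 1 to 22 and 24 to 29, and of 20580 on all sequences. They were chosen from the 4 deposited peak lists. Peaks of a mark were kept when at least 1 bp of them was also listed in the second library of that mark, those kept were merged into regions, and an H3K4me3 region was taken when more than 0% and less than 90% of its length lay under such an H3K27me3 region. The choice therefore rests on the overlap itself, and the overlap values below describe the regions and test nothing.

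The study profiled the histone marks of bESCs derived in a simplified base medium by CUT&RUN, in which an antibody bound to a mark guides a nuclease to the chromatin and the DNA cut free is sequenced. There were 2 libraries for H3K4me3 and 2 for H3K27me3, with about 50000 cells each. All 4 came from untreated bESCs of one condition and differed only in the antibody and the replicate. The labels describe a line from a single female blastocyst fertilised in vitro and plated at day 7, established after 4 passages on mouse embryonic fibroblasts, which were depleted with magnetic beads before the assay. The medium was DMEM/F12 mixed with Neurobasal, with B-27 and N-2 supplements, GlutaMAX, non-essential amino acids, 2-mercaptoethanol, penicillin and streptomycin, low fatty acid albumin, human FGF2 at 20 ng/mL and the Wnt pathway inhibitor IWR-1 at 2.5 µM, and Roxi was added at seeding and passage. The paper instead names a pair of independent lines for this assay, so the spread between replicates may be that of lines or of repeats of one line. On the 28 chromosomes, 21407 H3K4me3 peaks of replicate 1 spanned 58.7 Mb and 19839 of replicate 2 spanned 58.8 Mb. For H3K27me3, 15046 peaks of replicate 1 spanned 171 Mb and 14221 of replicate 2 spanned 185 Mb. The number of reads behind a list is not known from it, so a missing peak is written as not listed.

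H3K4me3 is placed by SET1 and MLL methyltransferases at the starts of active or poised genes, and H3K27me3 by Polycomb repressive complex 2 over silent genes. In pluripotent cells many developmental genes carry both marks, and the H3K4me3 peak of such a bivalent gene usually sits inside a wider Polycomb domain. A region partly under H3K27me3 differs from this picture in that a stretch of H3K4me3 reaches past the end of the Polycomb domain, the domain has a break over it, or H3K27me3 is an island within it. Both marks were measured on pools of cells, and the lists cannot show whether they sat on the same chromosome copy.

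Partial overlap was the less common form of overlap. Of the 17728 H3K4me3 regions, 4371 (24.7%) overlapped H3K27me3 at all, and 3426 of these lay under it for their whole length. The 836 partly overlapped regions made up 4.72% of all regions (95% Wilson interval 4.41% to 5.04%, counting error only) and 19.1% of those that overlapped. A further 109 regions were covered for at least 90% but not wholly. Counted on the H3K4me3 and H3K27me3 lists of replicate 1 alone, 5.14% of H3K4me3 peaks were partly covered, and 5.32% on those of replicate 2 alone. The number depended on weak peaks and on the agreement of the replicates. Of the 17728 regions, 383 (2.16%) were partly covered when H3K27me3 peaks had to reach the median score of the list, and 511 (2.88%) when the region had to be partly covered in each replicate alone. When peaks of both marks had to reach the median score, fewer H3K4me3 regions were left, and 264 of these 10837 (2.44%) were partly covered. No test was run on these shares. The regions are not replicates, and each share joins the lists of both marks, so that the libraries form no groups to compare.

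Among the 836 regions the degree of overlap was spread over the whole range that the rule allows. The median share under H3K27me3 was 53.3%, with a middle range from 30.6% to 73.4%, the lowest value was 3.23% and the highest 89.7%. In steps of 10 percentage points the number of regions ran from 37 below 10% to 138 at 80% to under 90%. In base pairs, the median stretch under H3K27me3 was 1600 bp and the median stretch free of it was 1600 bp as well. In 426 regions (51.0%) both stretches were at least 1000 bp long. In 42 regions the overlap was a single window of 200 bp, the smallest step of the lists, and in 36 a single window stayed free. All 836 together were 3.46 Mb long, of which 1.81 Mb lay under H3K27me3.

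**Figure D1:**
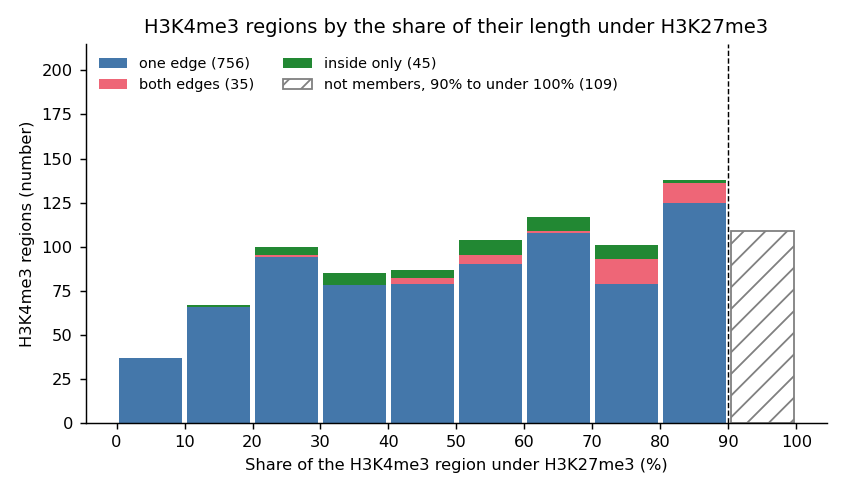
Number of H3K4me3 regions (y axis) by the share of their length under shared H3K27me3 regions (x axis, %), stacked by where the overlap lay. The blue bars of overlap at one edge hold 756 of the 836 regions, the hatched bar holds the 109 regions at 90% to under 100%, which were not chosen, and the 3426 regions wholly under H3K27me3 are not drawn.

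The overlap lay at one edge in 756 of the 836 regions, or 90.4% (95% Wilson interval 88.2% to 92.2%). There H3K27me3 covered one end of the H3K4me3 region and stopped before the other. In 35 regions (4.19%, 3.03% to 5.77%) separate H3K27me3 regions covered both ends and left a break between them. In 45 regions (5.38%, 4.05% to 7.13%) neither end was covered and the H3K27me3 region lay inside. The inside share was 2.09% when H3K27me3 peaks had to reach the median score of the list and 8.17% when peaks had to be shared over 50% of their length. At the one-edge regions, the covered end was the one with the lower coordinate in 361 (47.8%, 44.2% to 51.3%) and the one with the higher coordinate in 395 (52.2%), so the sides were near equal. Since no gene annotation of ARS-UCD1.2, the assembly of the lists, was used here, the direction of transcription at these ends is not given.

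The regions differed in width between these forms. The one-edge regions had a median width of 3400 bp (middle range 2400 to 4800 bp), those covered at both edges 5000 bp (3900 to 6500 bp) and those covered inside only 6200 bp (5400 to 8600 bp). Narrow regions have little room for a break or for an island inside, so width and form are not independent measures. All 836 together had a median width of 3600 bp, against 3200 bp for the 13357 regions with no H3K27me3 and 2600 bp for the 3535 covered for 90% or more. Widths of 10 kb or more were found in 26 of the 836 (3.11%), in 1.30% of the regions with no H3K27me3 and in 1.47% of those covered for 90% or more. A wide region is less easily covered whole, so this difference is in part set by the rule.

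Among the one-edge regions with the same form in each replicate, the 4 with the highest H3K4me3 scores were long H3K4me3 domains with a shorter H3K27me3 peak over one end. The score is a whole number that the authors' lists give for each peak without naming it, and it is compared here only within its own list, as a rank or, where said, divided by the width and then ranked. At chr8:82155201-82170600 of ARS-UCD1.2, 40.3% of the region lay under H3K27me3. Its H3K4me3 peak, from 82155201 to 82170200 (replicate 1) and from 82155401 to 82170600 (replicate 2), had a score at or above 99.85% and 99.84% of the peaks of the list. Percentiles of scores given elsewhere are rounded. The H3K27me3 peak over its higher end started at 82168801 in replicate 1 and at 82164401 in replicate 2, and ended at 82172400 and 82172000. The replicates thus differed in how far H3K27me3 came in, with 11.7% of the region covered in replicate 1 and 40.3% in replicate 2. These H3K27me3 peaks were weak, at or above 10.8% and 34.0% of their lists.

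The replicates lay closer together at chr11:43303801-43314600, which was covered for 42.6%. H3K27me3 covered 37.0% of it in replicate 1 and 42.6% in replicate 2, from 43310601 and 43310001 onward. Its H3K27me3 peak stood at or above 66.1% and 70.0% of the lists. At chr1:79584401-79596000, 44.8% was covered in replicate 1 and 27.6% in replicate 2, again at the higher end. The region chr10:32763001-32776400 held both an island and a covered edge. One H3K27me3 peak lay inside it, from 32766001 in replicate 1 and 32766601 in replicate 2 to 32769400 in both, and another began at 32773401 in both and ran past the end. Together these covered 47.8% and 43.3% of the region. These 4 H3K4me3 regions scored at or above 99.39% of the peaks in both lists.

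The widest one-edge region, chr22:7204401-7231800, was 27400 bp long after merging, but in the lists it was made of several peaks. Replicate 1 listed 6 H3K4me3 peaks in it and replicate 2 listed 3. H3K27me3 covered 40.9% of it in replicate 1, from 7205401 to 7216600, and 37.2% in replicate 2, where one peak ended at 7206600 and the next began at 7207801. The widest H3K4me3 peak of replicate 1 in it, from 7221801 onward, met no H3K27me3. The longest overlap of a one-edge region was 12600 bp, at chr5:30471401-30485600. There H3K27me3 covered all but the first 1600 bp, or 88.7% of the length, by a peak that was 16000 bp wide in replicate 1 and 14600 bp wide in replicate 2. The widest H3K4me3 peak of replicate 1 there lay wholly under H3K27me3, so the free end rests on replicate 2.

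Where H3K27me3 covered both ends, the break between the H3K27me3 regions was short. The longest break of each had a median of 1200 bp, from 800 to 2600 bp, and in 10 of the 35 it was 1000 bp or less. The peak caller had been set to bridge up to 5 windows for H3K27me3, so shorter breaks could not appear within a single list. At chr12:19569601-19579600 the lower H3K27me3 peak ended at 19571600 in both replicates, and the next began at 19573601 in replicate 1 and 19574001 in replicate 2, within an H3K4me3 peak of 10000 bp and 9200 bp. At chr3:77069401-77074400, H3K27me3 peaks of 11800 bp and 12000 bp came in from the lower side and ended at 77069800 and 77070000. Those of 8200 bp and 8800 bp on the higher side began at 77072201 in both replicates. The H3K4me3 peak spanned the break in both lists.

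At chr8:23782201-23788200 the break lay between 23783800 and 23785001 in replicate 1, and between 23784000 and 23785601 in replicate 2. The widest region of this form, chr19:51357601-51371400, had 2 breaks in each replicate and 3 H3K27me3 peaks with a like layout in both lists. Replicate 1 also divided the H3K4me3 there into 3 peaks, which replicate 2 listed as a single one of 13.8 kb. The longest covered length of this form was 11800 bp, at chr12:76732401-76745800, where the H3K4me3 was a single peak of 13.4 kb in replicate 1 and a pair of peaks, of 4.8 kb and 7.2 kb, in replicate 2.

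Where H3K27me3 lay inside only, it was an island with H3K4me3 on either side. The island had a median width of 3400 bp, from 1200 to 11000 bp, and each of the 45 regions held 1 of them. At chr19:39333801-39346800 the H3K4me3 peaks, 11400 bp and 13000 bp wide, stood at or above 99.7% of the peaks of either list. Replicate 1 placed the island from 39339801 to 39343000, and replicate 2 placed it from 39340201 to 39343200. Its ends thus differed by 400 bp or less.

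At chr2:126709801-126722600 the island filled most of the H3K4me3 region, from 126711401 to 126722400 (replicate 1) and from 126712401 to 126721600 (replicate 2). It covered 85.9% and 71.9% of the length. At chr17:7230601-7245600 replicate 1 listed a pair of islands, at 7236601 to 7239800 and 7242001 to 7244800, and replicate 2 a single one from 7236601 to 7244800. At chr29:44414401-44422800 the island covered 64.3% in replicate 1 and 40.5% in replicate 2, with H3K27me3 scores at or above 27.1% and 6.78% of the lists. The widest of these regions, chr3:15461401-15476800, had an island of 3.0 kb and 2.6 kb near its higher end. The islands thus ranged from peaks above the median score of the list to peaks near its lower limit.

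**Figure D2:**
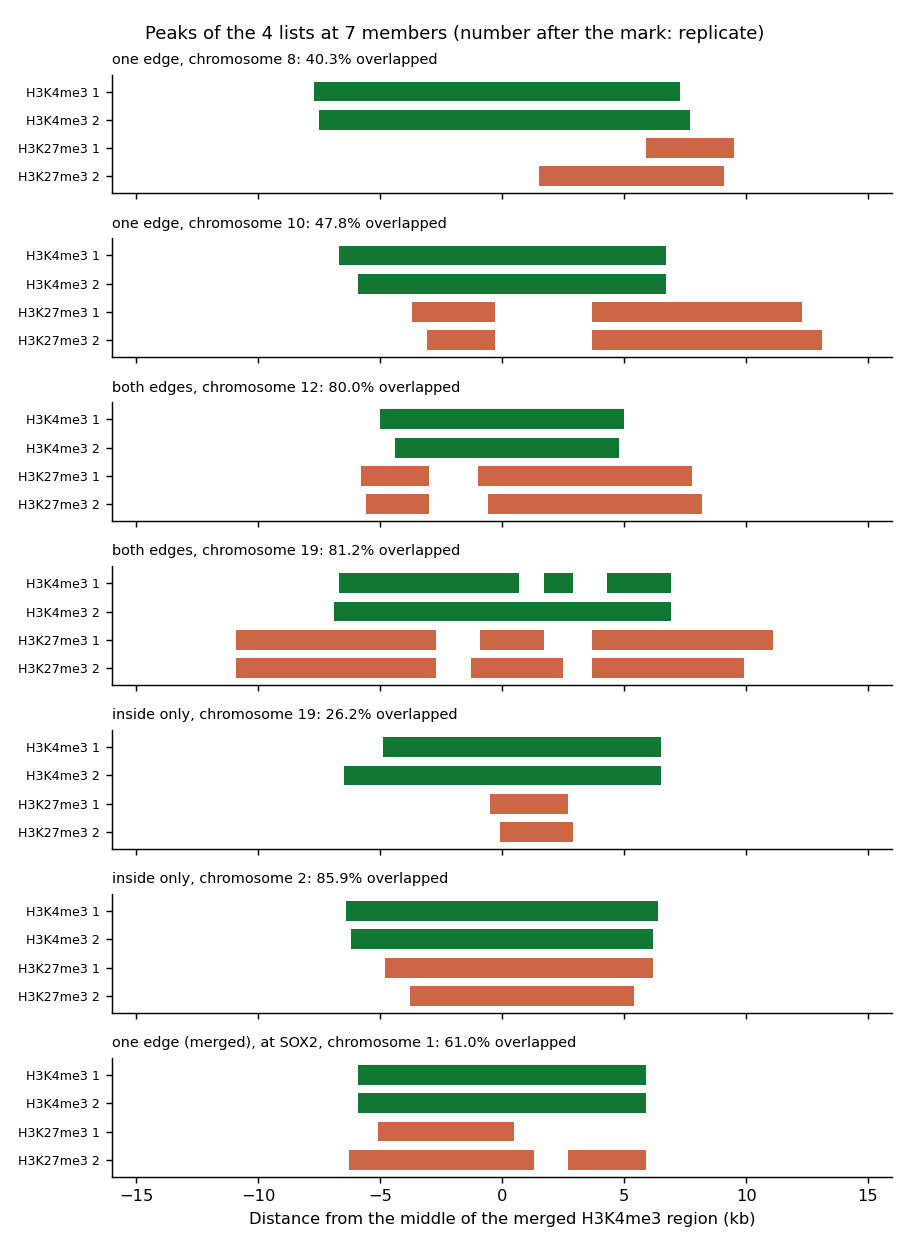
Peaks of the 4 lists at 7 of the regions, drawn as bars against the distance from the middle of the merged H3K4me3 region (x axis, kb), with H3K4me3 in green and H3K27me3 in orange for replicates 1 and 2. In the top pair H3K27me3 covers the right end, in the next pair both ends, in the next pair neither end, and at SOX2 the replicates differ in form.

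The places of SOX2, NANOG, WNT2, MSX2, TBX3, GATA6, FOXA2 and the HOXA cluster were read by eye from the study's browser views and serve as orientation only. Among these loci, SOX2 had a region of this kind, and other genes were not looked up. At SOX2, which encodes a transcription factor of the pluripotency network, the H3K4me3 region chr1:85296601-85308400 had the same limits in both replicates and scored at or above 99.5% and 99.3% of the lists. Of its length, 61.0% lay under shared H3K27me3. The form depended on the replicate. In replicate 1 the H3K27me3 peak lay inside, from 85297401 to 85303000, and covered 47.5%. In replicate 2 a peak from 85296201 to 85303800 covered the lower end and another, from 85305201 to 85308400, the higher end, so that 88.1% was covered. The second of these overlapped no H3K27me3 peak of replicate 1 and stood at or above 6.78% of its list. No H3K27me3 region overlapped the H3K4me3 region at NANOG, another pluripotency factor. All H3K4me3 regions at the drawn positions of WNT2, MSX2, TBX3, GATA6 and the HOXA cluster, developmental genes, were covered for 90% or more, and over FOXA2 there was no shared H3K4me3 region. Peak lists give no expression by which to check the labelled cell type.

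The form of the overlap was the same in the merged regions and in each replicate for 472 of the 836 regions (56.5%). A region enters here when the merged lists cover it in part, so H3K27me3 of a single replicate can suffice. H3K27me3 peaks of both replicates overlapped 660 of the regions. In 87 there was no H3K27me3 peak in replicate 1, and in 89 there was none in replicate 2. Taking the widest H3K4me3 peak in the region and the H3K27me3 peaks of 1 replicate at a time, 663 (79.3%) were partly covered in replicate 1, 650 (77.8%) in replicate 2 and 511 (61.1%) in both. In 34 regions the widest peak was partly covered in neither replicate, and whether this came from the merging of the lists or from the use of the widest peak was not tested. The same form in the merged regions and in each replicate was found for 430 of 756 regions with one covered edge (56.9%), 17 of 35 with both (48.6%) and 25 of 45 with an island (55.6%).

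The covered share also varied from replicate to replicate. Over all 836 regions the median share covered was 44.8% by replicate 1 and 41.5% by replicate 2. The median absolute difference between the replicates was 12.5 percentage points, and 368 regions (44.0%) differed by 10 points or less. In 60 regions the difference exceeded 50 points. Replicate 1 covered more in 377 regions and replicate 2 in 320, while 139 were equal.

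**Figure D3:**
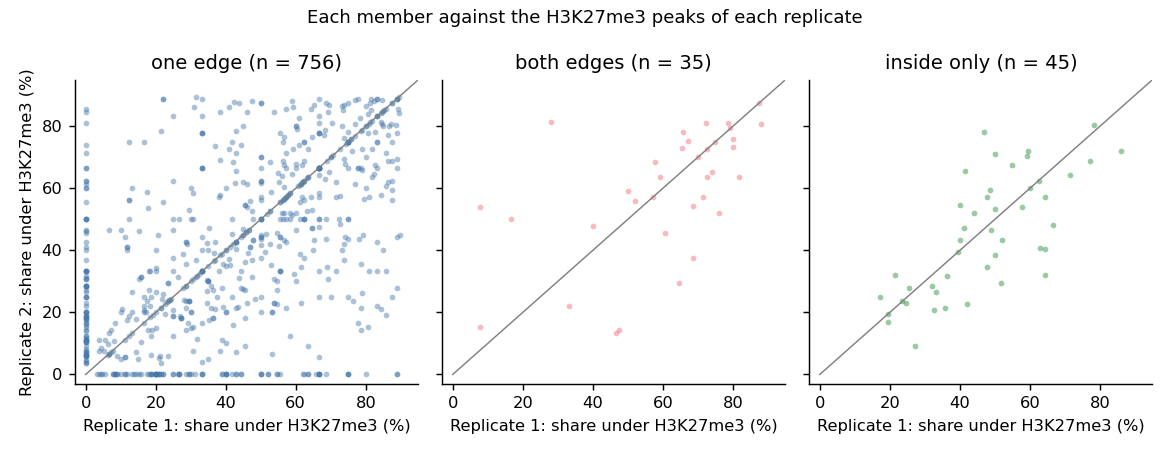
Share of each region under the H3K27me3 peaks of replicate 1 (x axis, %) and of replicate 2 (y axis, %), in panels by the form of the overlap, with the line of equality in grey. Points along the axes are the 87 and 89 regions without an H3K27me3 peak in replicate 1 or 2, while points along the line include the 139 regions with equal shares.

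Where both replicates showed the overlap at the same edge, in 426 regions, the ends of the peaks could be compared. The end of H3K27me3 within the H3K4me3 region differed by a median of 300 bp (middle range 200 to 600 bp), and 66.9% of these ends were within 400 bp of each other. The free end of the H3K4me3 peak differed by a median of 200 bp (0 to 600 bp) and its covered end by 400 bp (200 to 600 bp). The far end of the same H3K27me3 peak, away from the H3K4me3 region, differed by 800 bp (200 to 1800 bp), and 37.6% were within 400 bp. The inner end of H3K27me3 was thus placed more alike in these lists than its outer end. However, the choice of regions with the same form in both replicates keeps the inner end within the H3K4me3 peak. It only requires the outer end to lie at or past the covered end of that peak.

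The H3K27me3 regions that reached the 836 regions were narrower than H3K27me3 regions at large. There were 839 of them, with a median width of 7400 bp (middle range 4600 to 12600 bp, widest 272000 bp), against 10400 bp (6800 to 18200 bp) for all 10254 on the 28 chromosomes. Those that only covered H3K4me3 regions for 90% or more, 2435 in number, had a median of 12000 bp. A width of 20 kb or more was found in 14.3% of the 839 and in 22.4% of all. Wide domains are more apt to cover a region whole, so the rule itself favours narrow ones. An H3K27me3 peak at or above the median score of its list was present in 53.5% of the 839 in replicate 1 and 46.8% in replicate 2, against a background of 60.4% and 58.7% of all H3K27me3 regions.

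Past the covered edge, H3K27me3 went on for a median of 5800 bp (middle range 2600 to 11400 bp) beyond the end of the H3K4me3 region. On the free side, the next H3K27me3 region was a median of 135400 bp away (35000 to 413200 bp), and within 2 kb in 49 of the regions. Most H3K27me3 regions of this group, 657 of 839, reached no H3K4me3 region other than the partly covered ones. In the other 182, further H3K4me3 regions lay along the same domain.

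The H3K4me3 regions next to a one-edge region differed between the sides. On the covered side, 348 of 754 neighbours overlapped H3K27me3, or 46.2% (95% Wilson interval 42.6% to 49.7%). On the free side 175 of 754 did, or 23.2% (20.3% to 26.4%), against 24.7% of all H3K4me3 regions. For neighbours within 10 kb the shares were 198 of 242 (81.8%) and 35 of 187 (18.7%). A neighbour on the covered side can lie under the same H3K27me3 region, so this difference is in part made by the choice of regions. The one-edge form also requires a free end without H3K27me3, so the free side is not independent of the choice either. Over all neighbours its share was near that of all H3K4me3 regions. No background was computed for neighbours within 10 kb.

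An H3K27me3 region with a partly covered H3K4me3 region at each of its ends was found in 37 places, and the pair of H3K4me3 regions at such a domain is not independent. These domains ran from 2600 to 116600 bp, with a median of 9000 bp. The widest, chosen here after its values were seen, lay at chr18:52464601-52581200. Its lower end fell within the H3K4me3 region chr18:52463801-52465200, with the same limits in both replicates, of which 600 bp were covered. The higher end fell within chr18:52580201-52585800, of which 1000 bp were covered. Between them, 7 more H3K4me3 regions lay wholly under H3K27me3. The H3K4me3 peak at the higher end scored 915 in replicate 1 and 835 in replicate 2, and that at the lower end 110 and 106, against medians of the lists of 186 and 206. In replicate 1 a single H3K27me3 peak ran from 52464601 to 52581000. Replicate 2 listed a pair of peaks, one from 52465801 to 52571600 and one from 52573201 to 52581200. The first of these began past the lower H3K4me3 region, so the overlap there rests on replicate 1, and a separate peak covered the higher end.

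The H3K4me3 score per window is the score of the peaks in a region divided by their number of windows of 200 bp. It was ranked against all peaks of the list. The rule did not use the score, but the width of the region is part of the covered share on which the rule rests. Median widths were 3600 bp for the partly covered regions, 3200 bp with no H3K27me3 and 2600 bp wholly under it. The part of width in the values below was not tested. The median score per window among the 836 regions was at percentile 62.1 in replicate 1 (middle range 49.4 to 76.2) and 58.7 in replicate 2 (44.4 to 75.5). Regions with no H3K27me3 had medians of 67.3 (43.6 to 83.9) and 64.3 (38.5 to 82.4), and regions wholly under H3K27me3 48.0 (34.8 to 60.7) and 42.8 (29.8 to 57.7). By score per window the partly covered regions thus stood between these groups in both replicates, nearer to the regions with no H3K27me3, and the middle ranges overlapped throughout. By the score itself, not divided by width, they did not stand below the regions with no H3K27me3 in replicate 1. There the percentile of the highest peak in the region had a median of 68.0 for the partly covered regions, 67.5 for those with no H3K27me3 and 49.9 for those wholly under it. In replicate 2 these medians were 63.8, 64.8 and 45.1. A peak at or above the median score of the list was present in 77.5% of the 836 regions in replicate 1 and 71.2% in replicate 2, against a background of 66.5% and 61.3% of all H3K4me3 regions. In regions with no H3K27me3 the shares were 69.9% and 65.9%, lower than in the partly covered ones. A region made of several peaks has more peaks that can reach the median. Regions of 2 or more H3K4me3 peaks in a list were 11.1% of the partly covered ones and 5.83% of those with no H3K27me3. The part of this in the shares was not tested.

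Within the partly covered regions, grouped by covered share in steps of 30 percentage points, the median score per window fell from group to group. Regions covered for less than 30%, 204 in number, had a median percentile of 66.8 in replicate 1 and 65.4 in replicate 2. The 276 covered for 30% to under 60% had 62.3 and 60.9, and the 356 covered for 60% to under 90% had 59.3 and 56.3. The difference of the medians between the first and the last of these was 7.47 points in replicate 1 and 9.06 in replicate 2, smaller than the middle range of any of the groups. The 109 regions covered for 90% to under 100% did not continue the trend, with 64.0 and 59.9. In steps of 10 percentage points the fall was not steady. Below 40% covered, the medians lay between 64.2 and 67.4 in replicate 1 and between 64.1 and 67.3 in replicate 2. From 40% to under 90% they lay between 57.6 and 61.2 in replicate 1 and between 55.1 and 57.2 in replicate 2. The median width rose with the covered share, from 3400 bp below 30% to 3800 bp at 60% to under 90%, and its part in the lower score per window was not tested. The 109 regions had a median width of 4000 bp, against 2600 bp for the wholly covered regions.

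**Figure D4:**
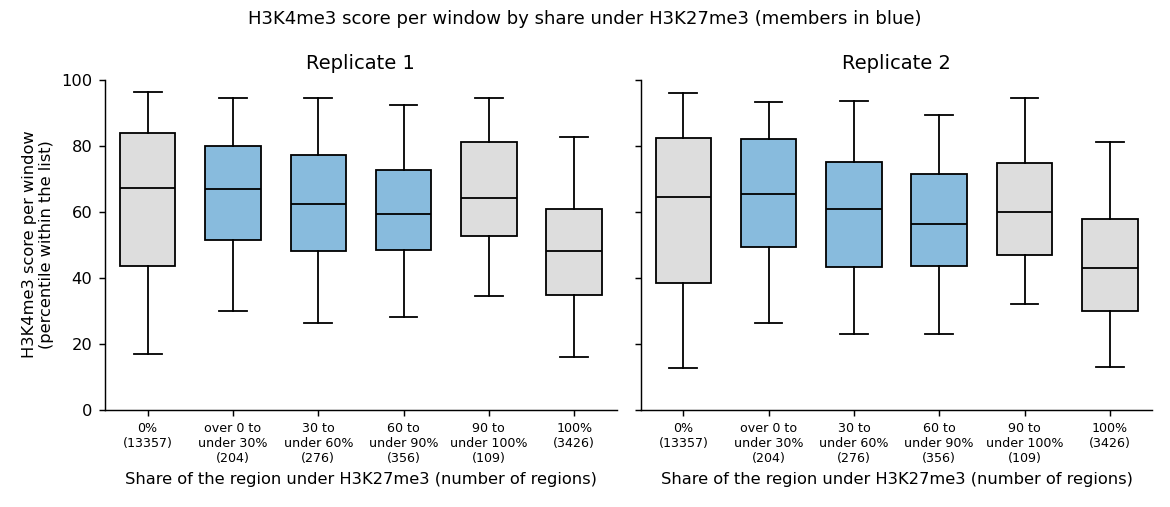
H3K4me3 score per window as a percentile within the list (y axis) by the share of the region under H3K27me3 (x axis, number of regions in brackets), for replicates 1 and 2. Boxes give the quartiles and the median, whiskers the 5th and 95th percentiles, and the partly covered regions are in blue: their medians go down from 66.8 to 59.3 (replicate 1) and from 65.4 to 56.3 (replicate 2).

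By chromosome, partly covered regions made up a median of 4.37% of the H3K4me3 regions. The highest shares were on chromosome 18, with 84 of 1068 regions (7.87%, 95% Wilson interval 6.40% to 9.63%), and chromosome 25, with 49 of 655 (7.48%, 5.70% to 9.75%). The lowest was on chromosome 4, with 13 of 647 (2.01%, 1.18% to 3.41%). Chromosome 18 had 6.89% in replicate 1 alone and 6.67% in replicate 2 alone, where its rank among the 28 chromosomes was 1 and 4. Chromosome 25 had 6.31% and 5.94%, with ranks 3 and 9. In replicate 2 the highest share was on chromosome 12, with 8.23%, against 5.77% in replicate 1. Chromosome 4 had 3.40% and 3.81%, with ranks 27 and 26, and the lowest share was on chromosome 27 in replicate 1 (2.96%) and on chromosome 29 in replicate 2 (3.62%). The merged shares of chromosomes 18 and 4 thus lay farther apart than those of either replicate, and without chromosomes 18 and 25 the share of all regions was 4.39%.

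**Figure D5:**
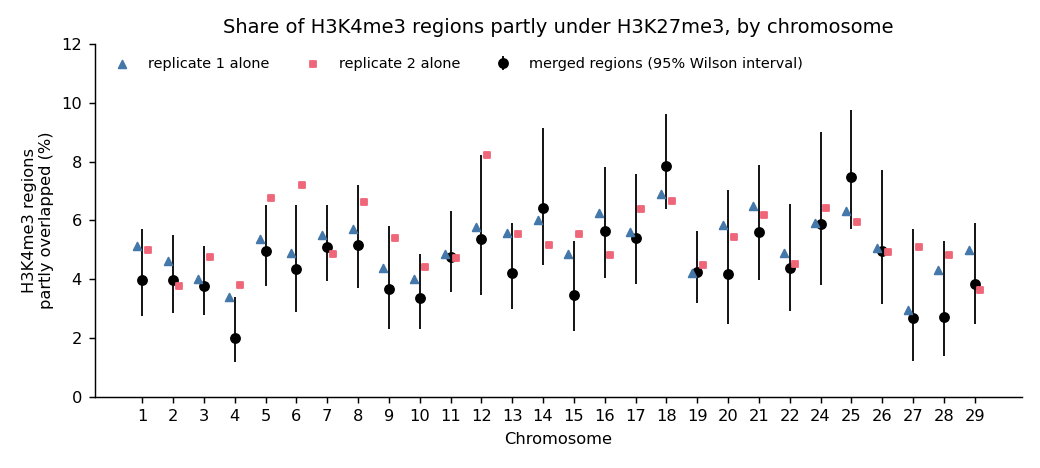
Share of H3K4me3 regions partly under H3K27me3 (y axis, %) on each of the 28 chromosomes (x axis), from the merged regions with 95% Wilson intervals (black) and from the lists of each replicate alone (blue and red). Chromosomes 18 and 25 are highest among the merged regions, at 7.87% and 7.48%, and chromosome 12 is highest in replicate 2, at 8.23%.

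Among regions of 4 kb or more, those just inside the limit of 90% were chr16:79588001-79593800 (89.7% covered), chr7:54460201-54465800 (89.3%) and chr4:113820001-113830800 (88.9%). Just outside were chr3:84619401-84625400, chr13:76279001-76283000 and chr14:42968401-42972400, each at 90%. All 6 were covered from one edge. The share in each replicate differed widely in some of them, from 89.7% in replicate 1 to 44.8% in replicate 2 at the first, and from 50.0% to 85.0% at the one on chromosome 13, while on chromosome 14 both gave 90%. At the end of the HOXA cluster, chr4:68936801-68946800 also lay outside the limit at 94.0%, with 62.0% covered in replicate 1 and 94.0% in replicate 2.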

How the data were processed

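CUT&RUN peak lists of bESCs were analysed, with 2 libraries per mark. The authors trimmed reads with Trim Galore, mapped the trimmed reads by BWA 0.7.17-r1188 on ARS-UCD1.2, removed duplicates and low quality alignments with Picard and SAMtools 1.7, and called peaks per library with epic2 in windows of 200 bp at an E-value of 500, with 1 gap allowed for H3K4me3 and 5 for H3K27me3. The submitters' processing notes, the source of these versions, also list cutadapt 1.18 and SICER 0.0.41, the version number that the paper gives for epic2. No control library is stated. The deposited score is a whole number per peak with no stated meaning, and was used only within its list, as a rank or as a rank of the score per window. Read depth is unknown.

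Here the lists were read as whole windows with positions counted from 1, shared peaks were merged, and overlaps were measured per base. For each replicate alone, the widest H3K4me3 peak in a region was used. An end was covered when its last base lay under an H3K27me3 region. Intervals on shares are 95% Wilson intervals. The regions and forms were chosen with earlier results of these data known. Regions were named by a fixed rule: per form, the 4 with the highest lower score percentile of both replicates and the same form in each, the widest and the longest covered, 3 on either side of 90%, and those at 8 loci of the study's browser views, while other genes that the rule covered were not looked up. The position of the genes was read by eye from the browser views. The gene table at hand is of ARS-UCD2.0, so it was not used, and no sequence was read. Tables were handled in pandas 2.3.3 and numpy 2.4.6 under Python 3.11.15, with intervals from scipy 1.17.1 and figures from matplotlib 3.10.9. The steps were tested on 5000 simulated regions, whose forms were all recovered, and bedtools 2.31.1 gave the same 836 regions. Results were recomputed under 12 other settings, and the regions partly covered in each replicate alone were examined after the data were seen.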

Additional observations from a re-analysis of the deposited data

Results flagged for a closer look

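Sequences outside the 28 chromosomes, which the choice of regions left out, also held partly covered H3K4me3 regions. The limit that a count of 0 allows is given beside each share for scale and tests nothing. On chromosome 23 these were 81 of 1169 regions, or 6.93% (95% Wilson interval 5.61% to 8.53%), where a count of 0 allows up to 0.257%. Chromosome X had 67 of 686, or 9.77% (7.76% to 12.2%, limit 0.437%). Of its 67 regions, 19 were covered at both edges and none inside only, against 35 and 45 of the 836 regions on the 28 chromosomes. On chromosome 23, 4 were covered at both edges and 5 inside only, and on unplaced sequences 1 and 10. Unplaced sequences had 94 of 997, or 9.43% (7.77% to 11.4%, limit 0.301%). Of the regions that overlapped H3K27me3 at all, the partly covered ones were 81 of 361 on chromosome 23, 67 of 576 on X and 94 of 785 on unplaced sequences, against 836 of 4371 on the 28 chromosomes. No difference between these sequences was tested.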

How the results depend on the processing

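No paired analysis was possible because each result needs the lists of both marks, so that the marks are not groups to compare, and same-numbered lists were joined in each replicate alone instead. Depth is unknown and limits what a missing peak can show. The share of regions partly covered moved most with the limit on peak score. When peaks of both marks had to reach the median score of the list, 264 of 10837 regions (2.44%) were partly covered in place of 836 of 17728 (4.72%), and with this limit on H3K27me3 alone 383 of 17728 (2.16%). Their one-edge share was 93.6% and 95.0% in place of 90.4%, the share inside only 3.03% and 2.09% in place of 5.38%, the median share covered 45.8% and 50.0% in place of 53.3%, and the median width 4200 and 3400 bp in place of 3600 bp, while the share at both edges was 2.87% for the limit on H3K27me3 in place of 4.19%.

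With a replicate left out, from 5.14% (1100 of 21407) to 5.32% (1056 of 19839) of regions were partly covered, with one-edge shares of 87.8% to 88.5%, both edges 4.91% to 6.25%, inside only 5.97% to 6.55%, a median covered share of 52.0% to 52.9% and median widths of 3000 to 3200 bp. With the peaks of either replicate the values were 5.29%, 88.9% one edge, 6.25% inside only, 51.9% covered and 3400 bp. With stretches covered in both replicates they were 5.04%, 86.5%, 6.15% both edges, 7.40% inside only, 51.7% and 2800 bp. With peaks shared at 50% of their length they were 4.98%, 88.4%, 8.17% inside only and 50.0%. With H3K27me3 gaps of 1000 bp or less joined, one edge was 91.6%, both edges 3.04% and the covered share 52.6%. An overlap of at least 400 bp gave 4.48% and 55.6% covered. A limit of 80% gave 3.94%, with 6.16% inside only, 45.5% covered and 3400 bp, and one of 100% gave 5.33%, with 91.3% one edge, 4.76% inside only and 58.3% covered. Chromosomes 1 to 29 gave 4.85%. The regions partly covered in each replicate alone, a setting chosen after seeing the data, were 511 (2.88%), with 86.3% one edge, 5.87% both edges, 7.83% inside only, 56.8% covered and 4000 bp. The one-edge form held most regions under each of these settings. Among those 511 regions, the median H3K4me3 score per window was also lower at 60% or more covered than below 30%, in both replicates. The score not divided by width was not compared in this way.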
